A study of Mus musculus with 4 samples.

Results

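The vomeronasal receptor gene clusters were described from their contacts in genome-wide chromosome conformation capture (Hi-C), in which chromatin is crosslinked, cut with HindIII and ligated, so that each read pair reports 2 fragments that lay close together in a nucleus. The regions were all autosomal 40 kb bins of the mm9 mouse genome that overlap the body of a gene whose symbol starts with Vmn1r or Vmn2r, pseudogenes included. They are called receptor bins here. There were 433 of them among 61816 autosomal bins, which is 0.7005%. They held 435 autosomal genes, 256 Vmn1r and 179 Vmn2r, of which 327 are annotated as protein coding, 105 as pseudogenes and 3 as processed transcripts. A further 2 genes on the X chromosome were not used.

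Male mouse embryonic stem cells (mESCs) of genotype WT were compared with male mESCs of genotype Firre KO, in which the locus of the long non-coding RNA Firre on the X chromosome was to be deleted. Each group had 2 libraries, which the study's methods describe as technical duplicates, and both libraries of a group were pooled in 1 matrix, so no spread between replicates could be measured and no test was possible. Read pairs numbered 65611035 in the matrix of WT and 46635652 in the other. According to the methods, the WT cells were the N3 line in 2i medium, while the Firre KO cells, whose line is not given there, were kept in 2i medium with irradiated feeder fibroblasts that were depleted before use. Another passage of the study puts both on feeders. Genotype, culture and possibly cell line therefore cannot be told apart. The bin that holds Firre (chrX:47920001-47960000) still had 1144 read pairs with X chromosome bins in the Firre KO matrix, against 1550 in WT, of 796087 and 906921 read pairs within the X chromosome. That bin lies wholly inside the deletion that the methods give for the Firre KO mouse and should be empty in male cells that carry it. The value thus goes against the label, and the matrix is called the Firre KO-labelled matrix throughout. Of all read pairs, 16.05% joined different chromosomes in WT and 35.63% in the Firre KO-labelled matrix. Hi-C carries no expression values, so the labelled cell type was not checked.

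Vomeronasal receptors detect pheromones and other chemical signals in the sensory neurons of the vomeronasal organ. The Vmn1r genes (V1R receptors) have a short extracellular end and are expressed in apical neurons that signal through the G protein subunit Gnai2, whereas the Vmn2r genes (V2R receptors) carry a long extracellular domain and are expressed in basal neurons that signal through Gnao1. Both families lie in tandem arrays made by repeated local duplication, each sensory neuron expresses very few of them, and stem cells are not known to use them. Chromatin of such silent, gene-poor arrays commonly belongs to the B compartment, the part of the genome whose regions contact each other more than they contact the gene-rich A compartment.

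The genes were concentrated on few chromosomes. They lay on 12 autosomes, and 237 of them (54.5%) were on chromosome 7, which also held 227 of the receptor bins. Neighbours at most 500 kb apart were joined, which gave 23 clusters of 2 or more genes and 10 single genes. The 13 clusters with at least 10 bins present in both matrices are described by name. Of these, 4 held Vmn1r genes only, 5 Vmn2r genes only and 4 both families. Bins were rarely shared by the families: 197 held Vmn1r genes only, 233 Vmn2r genes only and 3 both. No receptor bin overlapped an olfactory receptor gene. The receptor bins had a median GC content of 38.8%, against 41.4% for all autosomal bins, and a mean of 0.0970 protein coding genes other than receptor genes per bin, against 0.323.

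Hi-C reads are commonly counted only where they map to 1 place in the genome, and parts of the clusters hold repeated sequence at the cut sites. The following 4 stretches of mm9 illustrate such repeats beside a site without them. They were chosen for this contrast, so they do not test it. The first 3 were taken for a repeated flank in missing bins, and the last for flanks that occur only 1 time in kept bins. Each is 106 bases long and is centred on a HindIII site, which is written in capitals. The first 3 come from bins of the Vmn1r91 to Vmn1r183 cluster that were absent from both matrices, and share a flank of which all 14 exact copies in the genome lie inside that cluster. Copies confined to the cluster were part of the choice. Of all repeated flanks in the cluster's receptor bins, 40.6% had all copies inside it. The last comes from the Vmn2r90 to Vmn1r237 cluster, which was present in full.
Site near Vmn1r95: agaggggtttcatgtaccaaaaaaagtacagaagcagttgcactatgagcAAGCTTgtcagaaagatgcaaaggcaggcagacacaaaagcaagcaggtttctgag
Site near Vmn1r104: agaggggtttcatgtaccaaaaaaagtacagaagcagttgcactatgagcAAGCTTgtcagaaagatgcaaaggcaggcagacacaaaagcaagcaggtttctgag
Site near Vmn1r107: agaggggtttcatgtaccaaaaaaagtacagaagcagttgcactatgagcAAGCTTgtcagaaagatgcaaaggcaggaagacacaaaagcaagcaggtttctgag
Site in Vmn2r100: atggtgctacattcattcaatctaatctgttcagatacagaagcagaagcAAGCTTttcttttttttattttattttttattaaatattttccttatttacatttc

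The first site lies at chr7:20782781-20782886 on the plus strand, in intergenic sequence 2799 bases from Vmn1r95. The second lies at chr7:21122931-21123036, intergenic and 2822 bases from Vmn1r104, and was identical to the first over all 106 bases. The third lies at chr7:21257982-21258087, intergenic and 2792 bases from Vmn1r107, and differed from the first at 1 base. The same stretch thus recurred at nearly the same distance from 3 Vmn1r genes. Of the HindIII flanks in their 3 bins, all 18, all 24 and all 20 had another exact copy of their first 31 bases in the genome. The Vmn2r100 site lies at chr17:19657020-19657125, in an intron of that gene, and both of its flanks occur only 1 time, as did all but 4 of the 36 flanks of its bin.

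A bin was counted as kept where the corrected matrix had an entry for it. WT kept 359 of the 433 receptor bins (82.9%, 95% Wilson interval 79.1 to 86.2) and the Firre KO-labelled matrix kept 355 (82.0%, 78.1 to 85.3). Among all autosomal bins, 95.8% were kept in WT and 95.4% in the Firre KO-labelled matrix, so receptor bins were missing more often than bins in general. Most missing receptor bins were missing from both matrices, as were most missing autosomal bins. Of the receptor bins, 349 were kept in both and 68 in neither, with 10 kept in WT alone and 6 in the other matrix alone. Of all autosomal bins, 58938 were kept in both and 2547 in neither, with 302 kept in WT alone and 29 in the other matrix alone. By family, 78.7% (72.4 to 83.8) of the bins with Vmn1r genes only and 86.3% (81.3 to 90.1) of those with Vmn2r genes only were kept in WT. Of the 197 bins with Vmn1r genes only, 42 were missing there. The Vmn1r91 to Vmn1r183 cluster, which holds Vmn1r genes only, kept 24 of its 64 bins in WT. The lower share of Vmn1r bins thus came largely from that 1 cluster, and the families were not compared without it.

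Most missing bins, 67 of the 74 in WT, were on chromosome 7. There 160 of 227 receptor bins (70.5%, 64.3 to 76.0) were kept in WT and 157 (69.2%, 62.9 to 74.8) in the Firre KO-labelled matrix, whereas on the other autosomes 96.6% (93.2 to 98.3) and 96.1% (92.5 to 98.0) were kept. The Vmn1r91 to Vmn1r183 cluster (chr7:20686507-24840710), the largest with 79 Vmn1r genes, kept only 24 of its 64 bins in WT and 21 in the Firre KO-labelled matrix, and 38 in neither. Outside that cluster 90.8% and 90.5% of the receptor bins were kept. The Vmn2r37 to Vmn1r71 cluster (chr7:8954257-11334887) kept 21 and 20 of 37 bins. By contrast, all 46 bins of the Vmn2r90 to Vmn1r237 cluster on chromosome 17 (chr17:17840905-21451873) and all 25 of the Vmn1r188 to Vmn1r223 cluster on chromosome 13 (chr13:22179747-23342192) were kept in both.

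Repeated flanks tracked the missing bins. The first 31 bases beside a HindIII site had another exact copy in the genome for 51.3% of the flanks in receptor bins, against 13.3% over all autosomal bins and 26.9% in bins with olfactory receptor genes, of which 99.3% were kept in WT. In receptor bins that neither matrix kept the share was 96.8%, and in those that both kept it was 41.7%. All 183 receptor bins in which under 40% of the flanks were repeated were kept in both matrices, about the share of autosomal bins below that limit (55184 of 55313). In the Vmn1r91 to Vmn1r183 cluster the share was 83.5%, and 77.5% of its flanks had another copy inside the cluster itself. The kept receptor bins were also thinly covered, with a median of 837 read pairs per bin in WT and 646 in the Firre KO-labelled matrix, against 1890 and 1348 over all kept autosomal bins. Kept olfactory receptor bins were thin too, with 1082 and 757. Kept autosomal bins with under 40% of flanks repeated had 1982 and 1409, and those with at least 40% had 992.5 and 697. Kept receptor bins with under 40% of flanks repeated had a median of 889 in WT and 681 in the Firre KO-labelled matrix, and those with at least 40% had 742.5 and 596.5, so receptor bins of either kind lay below bins in general. Of the 250 receptor bins with at least 40% of flanks repeated, 166 were kept in both matrices, against 3753 of 4642 autosomal bins of that kind. Whether mapping of repeats set which bins were kept was not tested. The correction brings every kept bin to a like total, so it raises the values of such bins more than those of others.

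**Figure D1:**
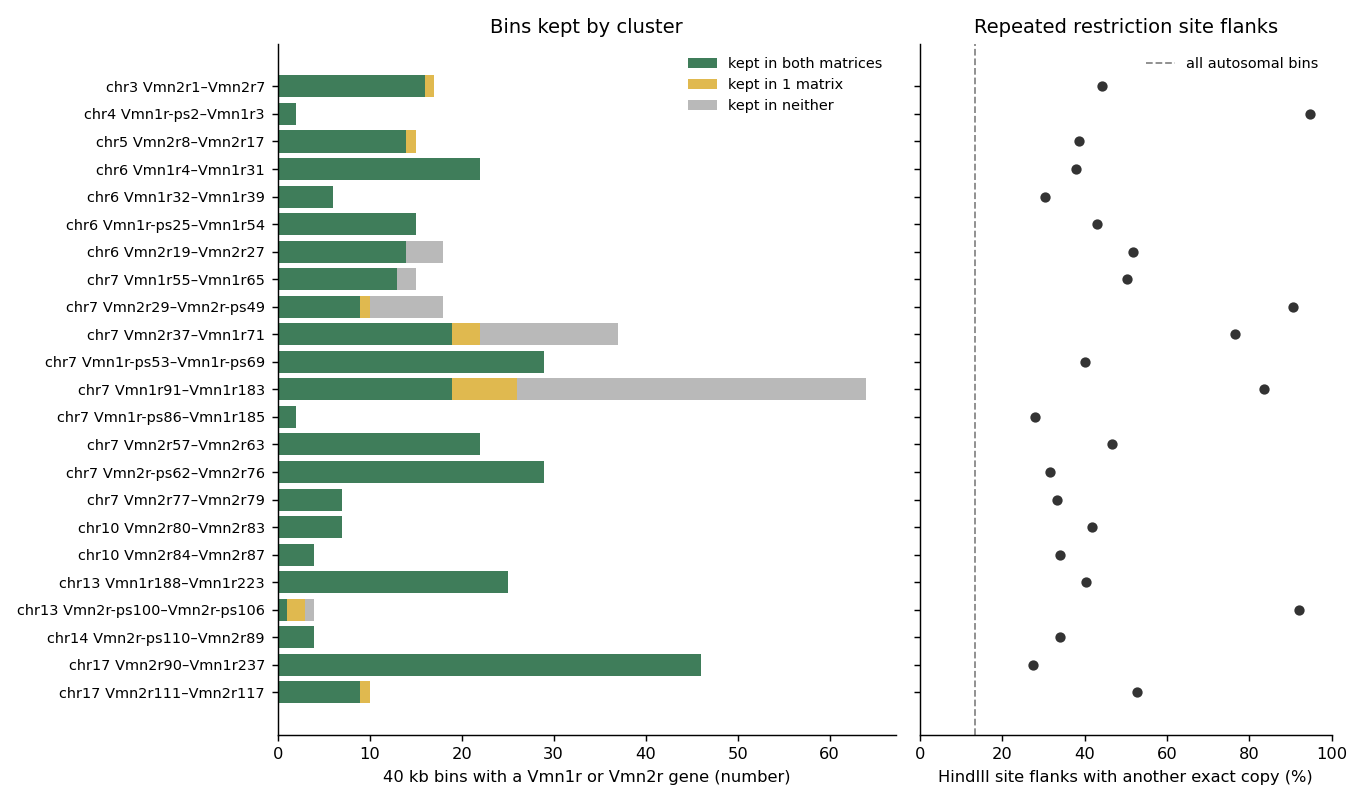
Left, number of 40 kb receptor bins in each of the 23 clusters, split by whether the bin was kept in both matrices, in 1 of them or in neither. Right, percentage of HindIII flanks (31 bases) of the same bins with another exact copy in mm9, with all autosomal bins (13.3%) as the dashed line. The Vmn1r91 to Vmn1r183 cluster stands out, with 64 bins of which 38 were kept in neither matrix and 83.5% of flanks repeated.

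Within clusters, receptor bins contacted each other more than bins at the same distance elsewhere on their chromosomes. The contact level was the mean ratio of observed to expected corrected values (O/E) over pairs of kept receptor bins 80 kb to 2 Mb apart, where the expected value is the mean of the chromosome at that distance. Over the 18 clusters with at least 5 bins kept in both matrices, O/E was 1.45 (95% counting interval 1.41 to 1.498) in WT and 1.39 (1.34 to 1.46) in the Firre KO-labelled matrix. It was above 1 in 16 clusters in WT and in 15 in the Firre KO-labelled matrix, against 46.2% and 46.9% of windows of 1 Mb tiled over all autosomes. Intervals cover counting error only, since read pairs of 1 pooled matrix hold no spread between cultures. The uncorrected read pairs of the same bins gave 0.502 in WT and 0.492 in the Firre KO-labelled matrix, below 1, so the direction depends on the correction. Among receptor bins with under 40% of flanks repeated, the corrected O/E was 1.31 (1.25 to 1.38) and 1.26 (1.19 to 1.35), lower than over all of them but still above 1.

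The clusters of Vmn1r genes differed among themselves. The Vmn1r188 to Vmn1r223 cluster on chromosome 13 had the most read pairs of any, 5776 in WT and 2741 in the Firre KO-labelled matrix, and an O/E of 1.76 (1.70 to 1.83) and 1.60 (1.51 to 1.69). Over all kept bins of its span O/E was 1.79 in WT, and 99.95% of the windows of its length had a lower value there. On chromosome 6, the Vmn1r-ps25 to Vmn1r54 cluster (chr6:89648711-90220047) had 1.44 (1.38 to 1.51) and 1.65 (1.56 to 1.75), and the Vmn1r4 to Vmn1r31 cluster (chr6:56906460-58422872) 1.32 (1.21 to 1.44) and 1.57 (1.42 to 1.73). These last 2 clusters were the only ones of the 18 that were higher in the Firre KO-labelled matrix with an interval of the log2 ratio above 0, which 30.7% of the tiled 1 Mb windows had. The Vmn1r91 to Vmn1r183 cluster had 1.67 (1.38 to 2.09) and 2.36 (1.71 to 3.35), wide intervals that overlapped. The small Vmn1r32 to Vmn1r39 cluster, with 6 bins, was the only one whose interval lay below 1 in WT, at 0.761 (0.602 to 0.957).

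The clusters of Vmn2r genes also spanned a wide range. In WT the highest of those described by name was the Vmn2r19 to Vmn2r27 cluster (chr6:123258351-124181802), with 1.62 (1.44 to 1.85) and with 1.39 (1.21 to 1.63) in the Firre KO-labelled matrix. The Vmn2r8 to Vmn2r17 cluster (chr5:109226212-109882406) had 1.53 (1.40 to 1.67) in WT and 1.06 (0.9002 to 1.26) in the Firre KO-labelled matrix. The Vmn2r1 to Vmn2r7 cluster (chr3:63885564-64648687), whose genes include the Vmn2r members expressed broadly in basal neurons, had 1.32 (1.22 to 1.43) and 1.45 (1.32 to 1.61). The Vmn2r57 to Vmn2r63 cluster (chr7:48655102-50189159) was close to 1 in both, at 0.996 (0.910 to 1.13) and 1.09 (0.978 to 1.27). The Vmn2r-ps62 to Vmn2r76 cluster (chr7:91958938-93394711), with 36 genes, had 1.44 (1.33 to 1.58) and 1.26 (1.13 to 1.43).

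Clusters with both families were above 1 in both matrices. The Vmn1r55 to Vmn1r65 cluster (chr7:5097820-5962612) had 1.78 (1.62 to 1.964) in WT and 1.69 (1.48 to 1.95) in the Firre KO-labelled matrix. The Vmn2r37 to Vmn1r71 cluster had 2.24 (1.84 to 2.79) and 1.74 (1.38 to 2.36), and the Vmn1r-ps53 to Vmn1r-ps69 cluster (chr7:12238479-13829711) 1.23 (1.16 to 1.31) and 1.14 (1.04 to 1.26). The Vmn2r90 to Vmn1r237 cluster had 1.35 (1.26 to 1.46) and 1.30 (1.198 to 1.44). The highest level in WT among all 18 was thus that of a mixed cluster of which 21 of 37 bins were kept.

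Between the matrices, within-cluster contacts moved little as a group. The median log2 ratio of the Firre KO-labelled matrix over WT was -0.09 over the 18 clusters, against -0.02 over the tiled windows. The interval excluded 0 for 2 clusters that were higher and 5 that were lower. Of the tiled windows, in which all kept bins were counted, 30.7% were higher and 35.9% lower by the same rule, so neither count lay above the background. Receptor bins held fewer read pairs than bins in general, which widens intervals, so these shares are not directly comparable. Only 1 cluster differed by at least 1.5 times, which was lower, while 1.31% of tiled windows were that much lower and 0.296% that much higher. It was the Vmn2r29 to Vmn2r-ps49 cluster on chromosome 7, named here because of its value, with 1.22 (0.992 to 1.502) in WT and 0.492 (0.346 to 0.717) in the Firre KO-labelled matrix, over 164 and 63 read pairs. Only 9 of its 18 bins were kept in both matrices and 90.6% of its flanks were repeated. The Vmn2r8 to Vmn2r17 cluster followed, with a log2 ratio of -0.53 (-0.78 to -0.28). Over all kept bins of its span the ratio was -0.54, a value below which 2.31% of the tiled windows of its length fell.

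**Figure D2:**
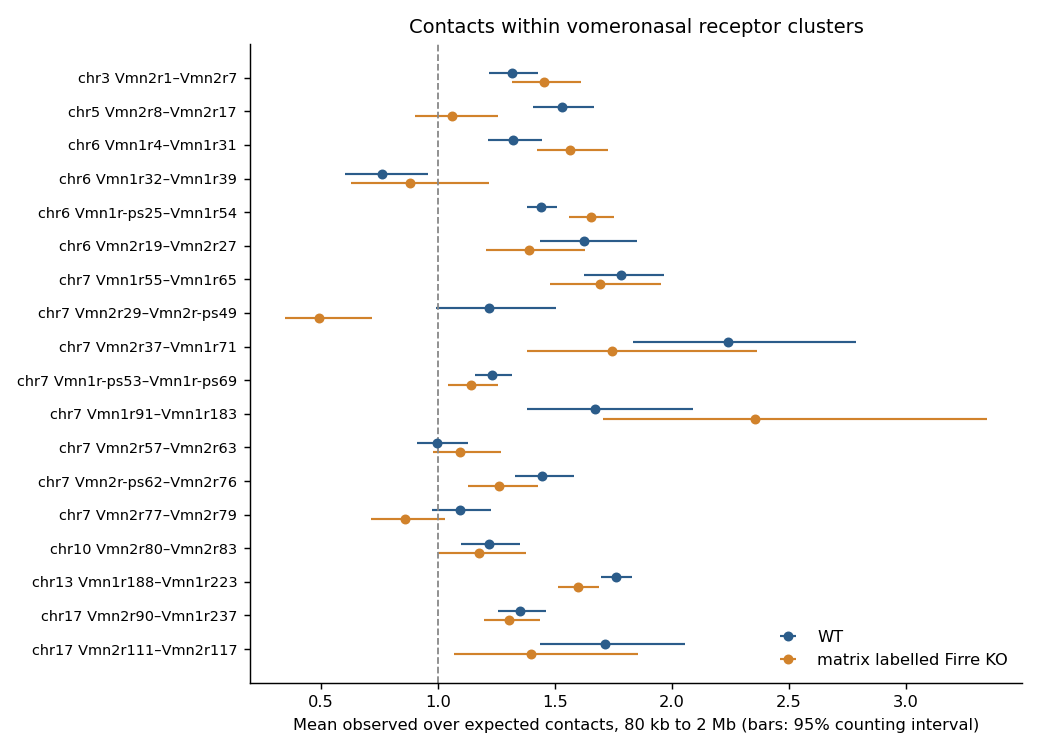
Mean observed over expected contacts between receptor bins of 1 cluster at 80 kb to 2 Mb (x axis, no unit) for the 18 clusters (y axis) in WT (blue) and the Firre KO-labelled matrix (orange). Points are means over bin pairs, bars are 95% counting intervals, and the dashed line marks the chromosome's mean. Most points lie above 1, and the Vmn2r29 to Vmn2r-ps49 cluster is the only one with an interval below 1 in the Firre KO-labelled matrix.

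Clusters on the same chromosome also contacted each other over long distances. Over the 45 pairs of clusters on the same chromosome, bins more than 2 Mb apart had an O/E of 2.20 (2.03 to 2.43) in WT over 1512 read pairs. In the Firre KO-labelled matrix they had 1.89 (1.70 to 2.22) over 905. Some of these clusters lie closer to each other, and only their bin pairs beyond 2 Mb were counted. Pairs of B compartment bins in general had 1.28 and 1.27 at such distances on the same 5 chromosomes, with B called by the orientation that leaves out receptor genes. Of the 45 pairs, 36 were on chromosome 7, with 2.32 (2.12 to 2.58) and 1.93 (1.72 to 2.31), where B with B gave 1.27 and 1.26. On chromosome 6 the 6 pairs had 1.46 (1.19 to 1.90) and 1.62 (1.16 to 2.68), and the pair on chromosome 17 had 1.60 (1.32 to 1.97) and 1.28 (0.940 to 1.90). The pairs on chromosomes 10 and 13 held at most 3 read pairs each. Uncorrected read pairs again gave values below 1, 0.571 and 0.530. With receptor bins of under 40% repeated flanks, the corrected values were 1.76 (1.46 to 2.28) and 1.60 (1.24 to 2.59).

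On chromosome 7 the pairs of clusters described by name differed widely, from 1.24 to 3.35 in WT and from 0.790 to 3.69 in the Firre KO-labelled matrix. The following pairs are named after their values were seen. The lowest in WT was the only pair of clusters with Vmn2r genes alone, Vmn2r57 to Vmn2r63 with Vmn2r-ps62 to Vmn2r76, with 1.24 (0.796 to 2.32), about that of B with B, and with 1.86 (1.07 to 4.18) in the Firre KO-labelled matrix. The lowest in the latter was Vmn1r-ps53 to Vmn1r-ps69 with Vmn2r-ps62 to Vmn2r76, with 0.790 (0.327 to 3.02) over 8 read pairs, and with 1.54 (0.990 to 2.76) in WT. The other pairs named are from the upper part of the range. The Vmn1r91 to Vmn1r183 cluster and the Vmn2r-ps62 to Vmn2r76 cluster had an O/E of 3.35 (2.13 to 5.98) in WT over 33 read pairs and 1.23 (0.581 to 6.07) in the Firre KO-labelled matrix over 11. The former cluster and the Vmn2r37 to Vmn1r71 cluster had 3.29 (2.46 to 4.57) and 2.11 (1.33 to 4.06). The Vmn1r55 to Vmn1r65 and the Vmn2r57 to Vmn2r63 clusters had 2.68 (1.82 to 4.29) and 1.996 (1.04 to 4.49). These were higher in WT, whereas the Vmn1r91 to Vmn1r183 and the Vmn2r57 to Vmn2r63 clusters had 2.48 (1.83 to 3.81) and 3.69 (2.21 to 6.70). In each of these 6 pairs the intervals of the 2 matrices overlapped.

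Receptor bins on different chromosomes also contacted each other more than the mean of their chromosomes, but over few read pairs. WT held 116 read pairs over 47492 pairs of receptor bins on different autosomes, and the Firre KO-labelled matrix 270 over 46598. Relative to the mean of each pair of chromosomes, O/E was 1.42 (1.11 to 1.84) in WT and 1.81 (1.55 to 2.13) in the Firre KO-labelled matrix. With A and B oriented by all annotated genes, pairs of B bins had 0.891 (0.890 to 0.893) and 1.04 (1.04 to 1.05), and receptor bins with B bins 0.991 (0.977 to 1.01) and 1.27 (1.26 to 1.28). The log2 ratio of receptor with receptor over receptor with B was 0.52 (0.18 to 0.86) and 0.51 (0.30 to 0.72), nearly the same in both matrices. Oriented without receptor genes, B with B had 0.901 (0.899 to 0.902) in WT and receptor with B 1.01 (0.993 to 1.02), which gave a log2 ratio of 0.50 (0.16 to 0.835), and the values of the Firre KO-labelled matrix did not move.

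The WT value was less firm than the other. Without the lowest 10% of bins by read pairs it was 1.14 (0.847 to 1.53) in WT and 1.62 (1.35 to 1.93) in the Firre KO-labelled matrix. Limited to receptor bins with under 40% of flanks repeated, it was 1.05 (0.661 to 1.65) and 1.48 (1.08 to 2.04). In uncorrected read pairs it was below 1 in both, 0.412 and 0.615. Without the chromosome 7 clusters it was 1.415 (0.878 to 2.33) and 1.53 (1.19 to 1.98). Apart from the uncorrected read pairs, the interval reached below 1 in WT in each of these settings, whereas in the Firre KO-labelled matrix it stayed above 1. That matrix also held the larger share of read pairs between chromosomes, 35.63% against 16.05%, and the part of this in the difference was not tested.

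The families were then taken apart. In WT, Vmn1r with Vmn1r bins had 2.40 (1.33 to 4.24) over 29 read pairs, Vmn2r with Vmn2r bins 1.31 (0.802 to 2.18) over 31 and Vmn1r with Vmn2r bins 1.15 (0.823 to 1.63) over 54. In the Firre KO-labelled matrix the values were 1.90 (1.35 to 2.71) over 60, 2.07 (1.53 to 2.86) over 74 and 1.65 (1.34 to 2.04) over 135. The log2 ratio of Vmn1r with Vmn1r over Vmn1r with Vmn2r was 1.05 (0.19 to 1.92) in WT and 0.20 (-0.33 to 0.73) in the Firre KO-labelled matrix. That of Vmn2r with Vmn2r over Vmn1r with Vmn2r was 0.18 (-0.59 to 0.96) and 0.33 (-0.17 to 0.82). Of these 4 ratios, only that of Vmn1r bins in WT, over 29 and 54 read pairs, had an interval that left out 0. Over the 13 clusters described by name, O/E with receptor bins of other chromosomes ranged from 0.480 (0.179 to 1.11) in the Vmn2r57 to Vmn2r63 cluster to 2.25 (1.19 to 4.32) in the Vmn1r-ps53 to Vmn1r-ps69 cluster in WT. In the Firre KO-labelled matrix it ranged from 0.974 (0.467 to 1.93) in the Vmn2r19 to Vmn2r27 cluster to 2.69 (1.61 to 4.56) in the Vmn2r37 to Vmn1r71 cluster.

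The point values were highest where both bins lay near the centromere. Pairs of receptor bins that both lay in the first 25 Mb of their chromosomes, the part next to the centromere in mice, had 2.46 (1.45 to 4.09) in WT and 2.63 (1.96 to 3.53) in the Firre KO-labelled matrix, while pairs of all bins in that part had 1.18 and 1.21. Without them the O/E of the remaining pairs was 1.14 (0.872 to 1.55) in WT and 1.59 (1.33 to 1.95) in the Firre KO-labelled matrix. Pairs with both bins beyond 25 Mb had 1.22 (0.716 to 2.05) and 1.90 (1.35 to 2.775). Pairs with 1 bin in each part had 1.11 (0.802 to 1.53) and 1.455 (1.17 to 1.84). In both matrices the interval of pairs beyond 25 Mb overlapped that of pairs in the first 25 Mb. Receptor bins of the first 25 Mb include those of Vmn1r-ps2 to Vmn1r3 (chr4:3030906-3112505), with 94.7% of flanks repeated, and of Vmn1r238 (chr18:3122455-3123465). Both also enter the Vmn1r with Vmn1r values, and their part was not measured apart. Single pairs of chromosomes held few read pairs. Over all receptor bins in WT, chromosomes 7 with 13 had 0.936 (0.463 to 1.84) over 13 read pairs. Those of 7 with 17 had 1.40 (0.776 to 2.61) over 25, and 13 with 17 had 1.59 (0.524 to 4.04) over 6. In the Firre KO-labelled matrix they had 1.825 (1.12 to 2.94) over 27, 2.25 (1.62 to 3.14) over 57 and 1.21 (0.487 to 2.66) over 9. For each of these pairs the intervals of the matrices overlapped. With bins of olfactory receptor genes on other chromosomes, receptor bins had 1.19 (1.07 to 1.33) and 1.63 (1.52 to 1.75), again below 1 when uncorrected (0.439 and 0.584). Olfactory receptor bins had 1.045 (0.948 to 1.158) with each other in WT and 1.575 (1.476 to 1.685) in the Firre KO-labelled matrix, so they too were higher there.

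**Figure D3:**
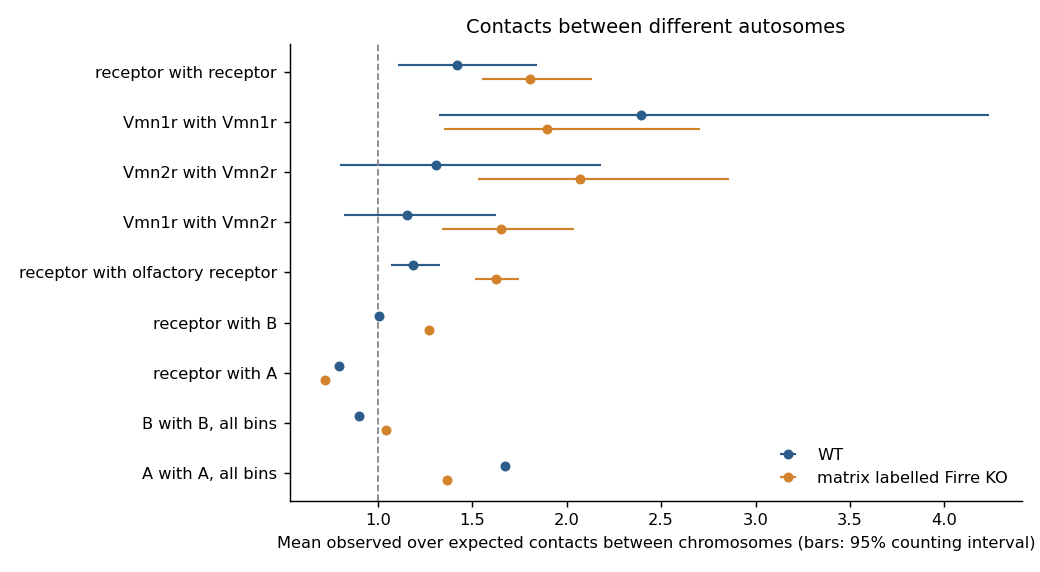
Mean observed over expected contacts between different autosomes (x axis, no unit) by kind of bin pair (y axis) in WT (blue) and the Firre KO-labelled matrix (orange), with 95% counting intervals as bars and the mean of the chromosome pair as the dashed line. Receptor with receptor pairs lie at 1.42 and 1.81, with wider intervals than pairs with all A or B bins because they rest on 116 and 270 read pairs. The A and B bins here are oriented without receptor genes.

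The compartment of the receptor bins depended on how compartments were scored, in both matrices. Each chromosome's contact pattern was summarised in windows of 200 kb by the eigenvector, among its first 3, that correlated best with gene density, with A as the gene-rich side. With all annotated genes as the guide, 180 of 345 scored receptor bins (52.2%, 46.9 to 57.4) were in B in WT and 312 of 345 (90.4%, 86.9 to 93.1) in the Firre KO-labelled matrix, against 58.0% and 51.6% of all autosomal bins. With windows of 400 kb in place of 200 kb the shares were 46.6% (41.4 to 51.9) and 57.4% (52.1 to 62.6), against 58.1% and 52.3% of all autosomal bins. The share was thus below the background in WT, and in the Firre KO-labelled matrix the interval reached it. Bins of 1 window share 1 score, so the intervals of shares in B, which count each bin singly, are too narrow. On chromosomes 7 and 13 of WT, with windows of 200 kb, the guide of all genes picked the third eigenvector. It put 16 of 147 receptor bins of chromosome 7 and 1 of 28 of chromosome 13 in B, while on the other autosomes 163 of 170 (95.9%) were in B. Of all bins, 65.05% were in B on chromosome 7 and 56.96% on the autosomes other than 7 and 13.

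The genes that made up the guide moved the share in WT. With only the vomeronasal and olfactory receptor genes taken out of it, 95.9% (93.3 to 97.6) were in B in WT, against 56.6% of all autosomal bins. With all protein coding genes, those of receptors included, 59.1% (53.9 to 64.2) were, against 57.3%. The Firre KO-labelled matrix stayed at 90.4% with either, against 51.6% and 51.4%.

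With protein coding genes other than vomeronasal and olfactory receptor genes as the guide, the first eigenvector was picked on both chromosomes of WT. Then 331 of 345 receptor bins (95.9%, 93.3 to 97.6) were in B in WT, against 56.6% of all autosomal bins, and the Firre KO-labelled matrix stayed at 90.4%, against 51.6%, both with windows of 200 kb. With windows of 400 kb the same guide gave 95.3% (92.5 to 97.1) in WT, against 57.6%, and 51.5% (46.2 to 56.8) in the Firre KO-labelled matrix, against 46.5%, so the high share held in WT only. At 200 kb, GC content and the first eigenvector throughout gave the same 95.9% in WT. GC content and the coding gene guide both picked the first eigenvector on every autosome of WT, so these are the same calls and not separate checks. With the coding gene guide at 200 kb, all 13 clusters described by name had a median score below 0 in WT. In the Firre KO-labelled matrix 12 had, the exception being the Vmn1r188 to Vmn1r223 cluster on chromosome 13, where the second eigenvector was picked and none of the 28 receptor bins was in B.

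Contacts between chromosomes gave a second view that did not use those eigenvectors for the receptor bins' own chromosome. The preference was the log2 ratio of a region's mean O/E with A bins over that with B bins on other autosomes. It was -0.29 (-0.32 to -0.26) for the receptor bins in WT and -0.82 (-0.84 to -0.80) in the Firre KO-labelled matrix, while all autosomal bins had 0.28 and 0.15. Of the receptor bins, 295 of 359 lay below 0 in WT and 354 of 355 in the Firre KO-labelled matrix, against 39.7% and 47.1% of all autosomal bins. Vmn1r bins had -0.32 (-0.37 to -0.28) and -0.80 (-0.83 to -0.76), and Vmn2r bins -0.26 (-0.30 to -0.22) and -0.84 (-0.88 to -0.81). Both families thus contacted B more than A, and by a wider margin in the Firre KO-labelled matrix. The same move was seen in other bins: olfactory receptor bins had -0.12 (-0.14 to -0.10) and -0.69 (-0.71 to -0.68), and B bins -0.0612 and -0.37. With the orientation that leaves out receptor genes, WT had -0.35 (-0.37 to -0.32), again with 295 of 359 bins below 0, against 40.1% of all autosomal bins. With the compartments of WT used for both, the value in the Firre KO-labelled matrix was -0.51. With uncorrected read pairs it was -0.45, whereas WT turned to 0.26. Without the lowest 10% of bins by read pairs WT had -0.19 (-0.22 to -0.16), and with receptor bins of under 40% repeated flanks -0.19 (-0.23 to -0.15), while the Firre KO-labelled matrix had -0.81 and -0.80.

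The lean towards B held for each cluster described by name, under either orientation. Without receptor genes in the orientation, 40.5% of tiled 1 Mb windows leaned that way in WT and 46.7% in the Firre KO-labelled matrix. With all genes in the orientation, the preference in WT ranged from -0.53 (-0.67 to -0.40) in the Vmn1r55 to Vmn1r65 cluster to -0.10 (-0.24 to 0.04) in the Vmn2r8 to Vmn2r17 cluster, and only the latter had an interval that reached 0. Without receptor genes it ranged from -0.60 (-0.73 to -0.46) in the Vmn1r55 to Vmn1r65 cluster to -0.11 (-0.21 to -0.01) in the Vmn1r-ps25 to Vmn1r54 cluster, and the interval lay below 0 in all 13. In the Firre KO-labelled matrix it ranged from -0.9995 (-1.07 to -0.93) in the Vmn1r188 to Vmn1r223 cluster, the one that the compartment score placed in A there, to -0.62 (-0.70 to -0.54) in the Vmn1r-ps25 to Vmn1r54 cluster. All 13 were lower in the Firre KO-labelled matrix than in WT, as were 64.4% of the tiled windows, or 67.5% with the orientation without receptor genes. Of single bins, by the orientation with all genes, 312 of 349 receptor bins were lower (89.4%), against 59.5% of all autosomal bins, 72.1% of bins that were in B in both matrices and 87.8% of olfactory receptor bins. Genotype and culture cannot be told apart in this shift, nor can the larger share of contacts between chromosomes in that matrix.

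Some smaller groups, named here after their values were seen, did not follow in WT by the orientation with all genes. The Vmn2r80 to Vmn2r83 cluster on chromosome 10, with 7 bins, had a preference of 0.25 (0.10 to 0.40) in WT and -0.94 (-1.06 to -0.81) in the Firre KO-labelled matrix, although all 7 bins were in B by the score in both. The bins of 2 isolated pseudogenes turned in the same way, from 0.74 to -0.81 at Vmn1r-ps1 on chromosome 2 and from 0.73 to -0.74 at Vmn2r-ps19 on chromosome 4. The bin of Vmn1r1 on chromosome 1 was in A in both matrices, with a preference of 1.18 (0.92 to 1.44) and 0.60 (0.37 to 0.84).

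**Figure D4:**
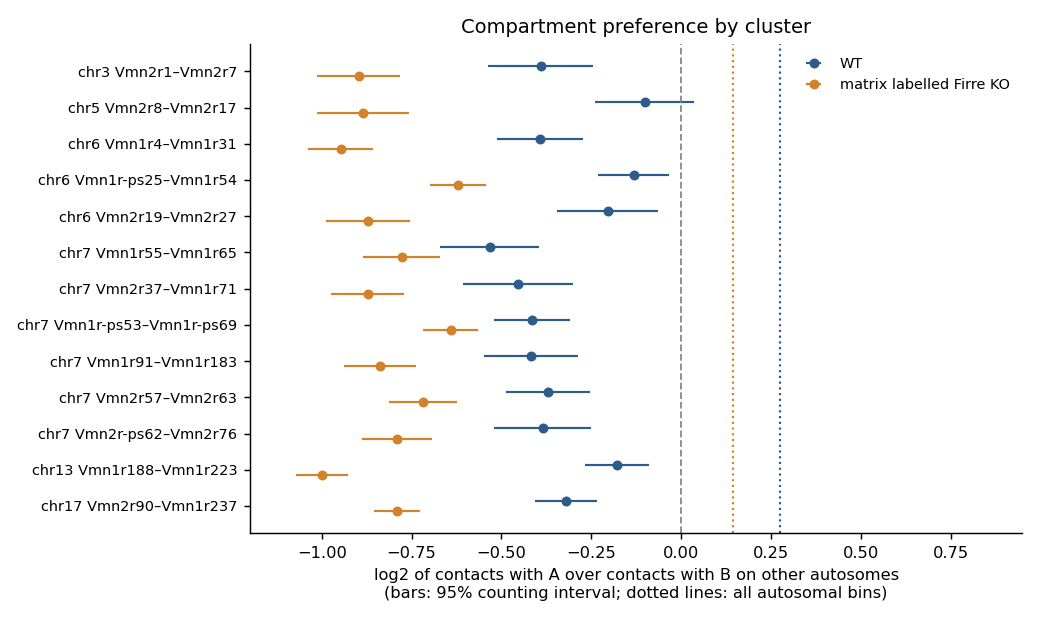
Log2 ratio of contacts with A over contacts with B bins on other autosomes (x axis) for the 13 clusters described by name (y axis) in WT (blue) and the Firre KO-labelled matrix (orange). Bars are 95% counting intervals, and dotted lines mark all autosomal bins (0.28 and 0.15). All points lie below 0, and each cluster is lower in the Firre KO-labelled matrix, as were 64.4% of tiled 1 Mb windows.

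Genes that work with the receptors were listed by role, not by value. The signalling genes are Trpc2, the ion channel of vomeronasal transduction, the G protein genes Gnai2, Gnao1 and Gng8, and Omp, a marker of mature chemosensory neurons. All of these 5 genes lie outside receptor bins. With all genes as the guide, 2 of them, Trpc2 and Omp, were in B in WT and 1 in the Firre KO-labelled matrix. By the orientation without receptor genes, 0 were in B in WT and 1 in the Firre KO-labelled matrix, against 56.6% and 51.6% of all autosomal bins, and their bins had a preference of 0.81 (0.72 to 0.90) and 0.57 (0.50 to 0.64). Gnai2 had the highest, 1.71 in WT and 1.46 in the Firre KO-labelled matrix. Gnao1 was the gene in B in the Firre KO-labelled matrix, with a preference of -0.34 there and 0.37 in WT.

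Gene families that encode other vomeronasal receptors, their partners or their ligands were in B. All 7 formyl peptide receptor genes, several of which serve as vomeronasal receptors, lie inside the span of the Vmn2r90 to Vmn1r237 cluster, and Fpr-rs6 shares a bin with a receptor gene. They were in B in both matrices, but carried only 3 distinct scores since several shared a window, with a preference of -0.58 (-0.77 to -0.38) and -0.75 (-0.90 to -0.60). All 9 H2-Mv genes, MHC class Ib genes expressed in Vmn2r neurons, were in B in both, again with 3 distinct scores, and had -0.09 (-0.23 to 0.06) and -0.68 (-0.80 to -0.57). Of the major urinary protein (Mup) genes, which encode pheromone carriers and ligands made in the liver and glands, all 12 that had a score in WT and all 13 in the Firre KO-labelled matrix were in B, of 21 in the annotation, with 9 and 8 distinct scores. Of all autosomal bins, 56.6% and 51.6% were in B. Their preference was -0.55 (-0.73 to -0.38) and -0.88 (-0.9995 to -0.77).

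Contacts across the edges of the clusters were lower, in the median, than those across all bin borders when 480 kb on either side were used, with a wide spread between edges. Each edge was measured as the log2 ratio of mean O/E between the 480 kb inside and the 480 kb outside over the mean within these sides, so that a value below 0 marks an insulated edge. Of the 32 edges of the 16 clusters that span at least 400 kb, 28 had enough kept bins. Pooled over them the value was -0.36 (-0.39 to -0.33) in WT and -0.29 (-0.34 to -0.25) in the Firre KO-labelled matrix, and the median over the edges was -0.26 and -0.25. The median over all autosomal bin borders was -0.00265 and 0.0168. Of the 28 edges, 22 lay below 0 in WT and 17 in the Firre KO-labelled matrix, against 50.2% and 49.1% of all borders. The most insulated 10% of borders held 8 of the edges in WT and 7 in the Firre KO-labelled matrix, of which 5 were the same. With sides of 960 kb, where 27 edges were measured, the pooled value was -0.29 (-0.31 to -0.27) in WT and -0.14 (-0.17 to -0.11) in the Firre KO-labelled matrix. The median over edges was then -0.33 and -0.16, against -0.05 and -0.14 over all borders, so in the Firre KO-labelled matrix the edges were close to borders in general.

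Single edges, named after their values were seen, differed widely. The lowest in WT was the Vmn1r188 side of the chromosome 13 cluster, with -1.58 (-1.76 to -1.40), and with -1.05 (-1.29 to -0.81) in the Firre KO-labelled matrix. The lowest in the Firre KO-labelled matrix was the Vmn1r-ps25 side of the chromosome 6 cluster, with -2.12 (-2.29 to -1.96), and with -1.21 (-1.31 to -1.11) in WT. The Vmn2r8 side of the chromosome 5 cluster had -1.18 (-1.35 to -1.01) and -1.11 (-1.40 to -0.83), and the Vmn1r55 side of its chromosome 7 cluster -1.16 (-1.32 to -0.995) and -1.17 (-1.39 to -0.96). These 4 edges were insulated in both matrices.

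Other edges were open. The Vmn1r237 side of the chromosome 17 cluster had the highest value in WT, 0.49 (0.33 to 0.64), and 0.48 (0.28 to 0.68) in the Firre KO-labelled matrix. Both sides of the Vmn2r57 to Vmn2r63 cluster, whose inner contacts were also close to the chromosome's mean, had values above 0. The Vmn2r57 side had 0.23 (0.07 to 0.40) in WT and 0.31 (0.01 to 0.60) in the Firre KO-labelled matrix. The Vmn2r63 side had 0.09 (-0.03 to 0.21), an interval that included 0, and 0.62 (0.43 to 0.81). The Vmn2r-ps62 side of its cluster differed most between the matrices, with -0.19 (-0.35 to -0.03) in WT and -1.35 (-1.62 to -1.08) in the Firre KO-labelled matrix.

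Boundaries of topologically associating domains, found as local minima of insulation, lay within 80 kb of 9 of the 28 edges in each matrix, 5 of them in both. This is 32.1% (17.9 to 50.7), against 22.4% of all borders in WT and 20.8% in the Firre KO-labelled matrix, so the interval included the background in both. With an insulation square of 240 kb the share was 46.4% (29.5 to 64.2) in WT and 35.7% (20.7 to 54.2) in the Firre KO-labelled matrix, against 29.0% of all borders in WT and 15802 of 58605 in the Firre KO-labelled matrix, and the interval of WT lay above the background. With the plain mean of the square it was 35.7% (20.7 to 54.2) and 39.3% (23.6 to 57.6), against 24.3% and 22.4%, and the interval of the Firre KO-labelled matrix lay above the background. With a square of 960 kb the share fell to 10.7% (3.71 to 27.2) in WT and 21.4% (10.2 to 39.5) in the Firre KO-labelled matrix, against 13.8% and 13.1% of all borders. Within 40 kb it was 17.9% (7.88 to 35.6) and 25.0% (12.7 to 43.4), against 14.9% and 13.8%. Whether edges held more boundaries than other borders thus depended on the setting. A boundary lay at the edge itself on the Vmn1r-ps25 side of its cluster in both matrices. Over the 28 edges, the median value was lowest 40 kb outside the edge in WT, at -0.41, and 160 kb outside in the Firre KO-labelled matrix, at -0.42. It rose to 0.48 at 320 kb inside and to 0.41 at 360 kb inside, where contacts across a border exceeded those within its sides.

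**Figure D5:**
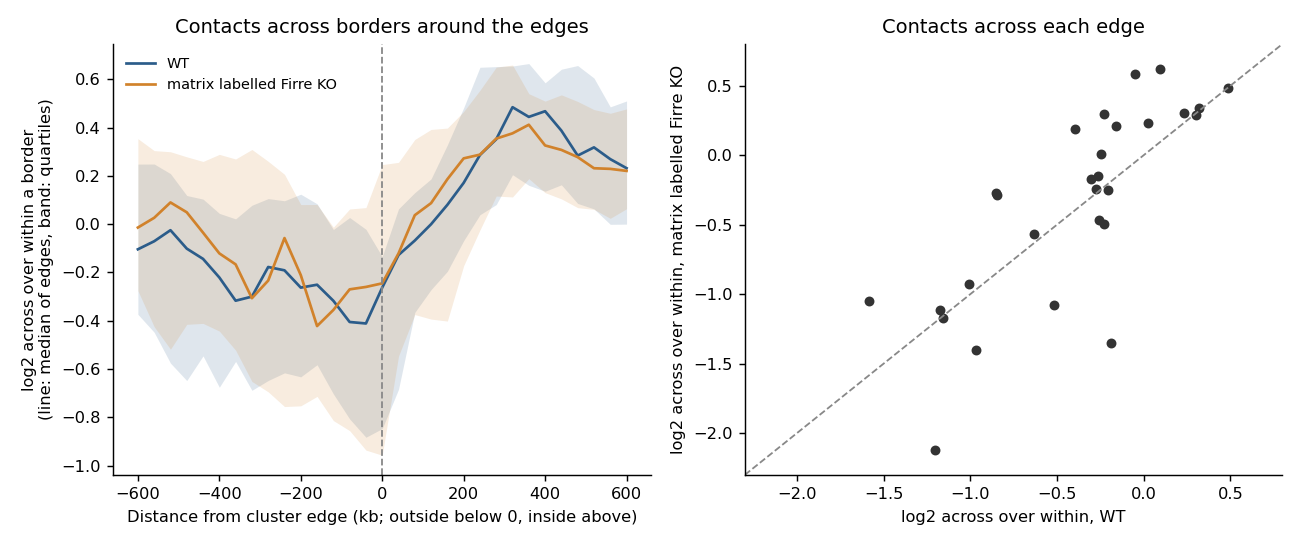
Left, log2 ratio of contacts across over contacts within the sides of a bin border (y axis) by distance from the cluster edge in kb (x axis, outside below 0), as the median over edges (lines) and their quartiles (bands) in WT (blue) and the Firre KO-labelled matrix (orange). Right, the value at each of the 28 edges in WT (x axis) against the Firre KO-labelled matrix (y axis), with the line of equal values dashed. The medians are below 0 at the edge (-0.26 and -0.25) and above 0 inside.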

How the data were processed

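In situ Hi-C with HindIII was made by the authors from 4 libraries in 2 groups, WT and Firre KO, with 2 technical duplicates each that were pooled before deposit. The submitters' processing notes name HiC-Pro 2.7.8 and mm9. The authors mapped, binned at 40 kb and iteratively corrected the read pairs, and the deposited values are this corrected signal, 1 matrix per group. Dividing each entry by the step of its bins gave read pairs, of which 100% came out within 0.05 of a whole number, 65611035 in WT and 46635652 in the Firre KO-labelled matrix. Of the 66382 bins in the table, 62678 and 62625 were kept. No columns of other series were present.

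Genes came from GENCODE vM1 on the same build. Receptor bins and gene lists were chosen with earlier results of these data known. Esp genes were not analysed here. Clusters were named by their outermost genes, and those with at least 10 receptor bins kept in both matrices are described singly. Expected values were means per chromosome and distance, or per pair of chromosomes. Compartments used windows of 200 kb and insulation a square of 480 kb, a delta span of 320 kb and smoothing over 160 kb, in an own implementation (Python 3.11.15, numpy 2.4.6, scipy 1.17.1, pandas 2.3.3, matplotlib 3.10.9) tested on simulated data. With 1 pooled matrix per group no test was run. Intervals are 95% gamma intervals of weighted counts, log-scale intervals of ratios or Wilson intervals of shares, and cover counting error only. The orientations without receptor genes or by coding genes, the limit on repeated flanks, and the runs without chromosome 7, without the first 25 Mb and at up to 20 Mb were added after seeing the data.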

Additional observations from a re-analysis of the deposited data

How the results depend on the processing

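Of 97 alternative values, 47 moved by less than their counting interval (1.5 times for shares of edges), 41 moved by more and 9 turned direction. No paired analysis was possible because the libraries of a group were pooled in 1 matrix, and for the same reason no library could be left out. All 9 reversals came with uncorrected read pairs: within clusters 0.502 in WT and 0.492 in the Firre KO-labelled matrix, between clusters on different chromosomes 0.412 and 0.615, on the same chromosome 0.571 and 0.530, with olfactory receptor bins 0.439 and 0.584, and for the preference 0.26 in WT. The preference in the other matrix was then -0.45 and the edges were -0.48 in WT and -0.49 in the Firre KO-labelled matrix. The 9 reversals leave out shares that changed side of their background. In WT the share in B was 52.2% against 58.0% of all autosomal bins, and 95.9% against 56.6% with GC content. The share of edges with a boundary in WT was 32.1% against 22.4% of borders, and 10.7% against 13.8% with a square of 960 kb. With under 40% of flanks repeated, the values in WT and then in the Firre KO-labelled matrix were 1.31 and 1.26 within clusters, 1.05 and 1.48 between chromosomes, 1.76 and 1.60 on the same chromosome, and -0.19 and -0.80 for the preference.

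Within clusters, the median over clusters was 1.40 in WT. In the Firre KO-labelled matrix the value was 1.33 with bins kept in both matrices, 1.49 without the lowest 10% of bins by read pairs, 1.25 and 1.51 with gaps of 200 kb and 1 Mb, and 1.33 over all bins of the span. There the value between chromosomes was 1.53 without chromosome 7, and that on the same chromosome 2.31 up to 20 Mb. The share in B was 46.6% in WT with windows of 400 kb, 95.3% with these windows and coding genes other than receptor genes as the guide, and 59.1% with all coding genes. It was 95.9% with each of GC content, the first eigenvector and both guides without receptor genes. GC content and the coding guide without receptor genes picked the first eigenvector on every autosome of WT, so they are not separate checks. In the Firre KO-labelled matrix the share in B was 57.4% with windows of 400 kb and 51.5% with these windows and coding genes other than receptor genes. It was 85.8% with GC content, against 53.0% of all autosomal bins. With the first eigenvector it was 99.7%, for which the share of all autosomal bins is not given, so that value stands without a background. The preference in WT was -0.19 without the lowest 10% of bins and -0.35 without receptor genes in the orientation, and -0.51 in the Firre KO-labelled matrix with WT compartments.

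The edges were -0.29 in WT and -0.14 in the Firre KO-labelled matrix with sides of 960 kb, and -0.41 and -0.38 with gaps of 1 Mb. Without the lowest 10% of bins they were -0.34 in the latter. The share of edges with a boundary was 10.7% and 21.4% with a square of 960 kb, against 13.8% and 13.1% of all borders, and 17.9% in WT within 40 kb, against 14.9%. The cause was not tested for any of these, uncorrected read pairs included. Few read pairs between chromosomes, 116 in WT, limit what can be seen there. Both matrices kept only 166 of the 250 receptor bins with at least 40% of flanks repeated. Of all autosomal bins of that kind, they kept 3753 of 4642.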
